A study of Mus musculus with 12 samples.

Results

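The 5 cell cycle genes described here are the 2 D cyclins Ccnd1 and Ccnd2, the 2 Ink4 inhibitors Cdkn2a and Cdkn2b and the mitotic cyclin Ccnb2. They were taken by name from a table of 14899 genes measured in hybrid mouse embryonic stem (ES) cells and in neural progenitor cells (NPC) made from them, and each of the 5 had 1 row. The cells carried one chromosome set of the 129Sv strain and one of Cast/EiJ, so that reads over sequence differences could be assigned to the 129 or the Cast allele. The ES groups were the XX line F1-21.6 and the XY line F1-23, with 1 RNA library each, grown on inactivated embryonic fibroblast feeders with serum and leukaemia inhibitory factor. The NPC groups were 4 clones differentiated from F1-21.6 and 4 from F1-23, again with 1 library each. Clone values are given throughout in the order 129, C2, G4, E1.2 for the XX set and mC3, mE6, mB4, mG3 for the XY set, and ES values with F1-21.6 first. The labels name no introduced mutation, transgene or drug for any of these groups. The clone named 129 is a cell clone of the hybrid, not the 129 strain. Each clone is 1 library, so a difference between clones is a difference between single libraries, and p-values measure the spread between these libraries. The lines differ in sex chromosomes, in origin and in clone set, which cannot be told apart. Library names of the 4 XX clones begin with GEI, and those of the XY clones and both ES lines with GUR. This name prefix cannot be told apart from the XX clone set either.

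The members act at both ends of the cell cycle. D cyclins bind Cdk4 or Cdk6 and phosphorylate the retinoblastoma protein, which frees E2F factors to start S phase. Cdkn2b encodes p15Ink4b, and Cdkn2a encodes p16Ink4a and, from another first exon and reading frame, p19Arf; the Ink4 proteins block Cdk4 and Cdk6, and p19Arf stabilises p53 by binding Mdm2. Cyclin B2 partners Cdk1 at mitosis, and its gene belongs to the late cell cycle group that is repressed through DREAM and activated through B-Myb. In neural progenitors Ccnd1 and Ccnd2 are the D cyclins best known for driving expansion, and Ink4 genes rise with time in culture in many cell types. One value per gene was deposited, so p16Ink4a and p19Arf transcripts of Cdkn2a were not separated.

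On mouse build mm9 all 5 genes lie on the minus strand. Cdkn2a (chr4:88920376-88940523) and Cdkn2b (chr4:88952197-88956941) are neighbours on chromosome 4, Ccnd2 lies at chr6:127075078-127101426, Ccnd1 at chr7:152115835-152125830 and Ccnb2 at chr9:70255495-70269361. The start regions of Ccnb2 and Cdkn2b are shown because these are the genes that lost the counts of a single allele while their nearest neighbours kept both, as described further on. Each window runs from 250 bases before to 20 bases after the start in RefSeq on build GRCm38.p6, which differs from the build of the deposited table, at chr9:70421535-70421804 for Ccnb2 and chr4:89311013-89311282 for Cdkn2b, both on the minus strand. Capitals mark CCAAT (the NF-Y box), TTTGAA (the core of the cell cycle homology region bound by DREAM and B-Myb complexes) and GGGCGG (the Sp1 box), searched on both strands; no match overlapped another in these windows.
Ccnb2: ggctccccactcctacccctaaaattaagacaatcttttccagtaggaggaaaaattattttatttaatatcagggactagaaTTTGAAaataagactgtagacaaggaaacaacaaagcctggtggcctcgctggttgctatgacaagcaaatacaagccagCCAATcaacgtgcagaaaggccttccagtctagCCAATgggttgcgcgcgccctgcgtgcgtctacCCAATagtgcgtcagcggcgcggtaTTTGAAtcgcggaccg
Cdkn2b: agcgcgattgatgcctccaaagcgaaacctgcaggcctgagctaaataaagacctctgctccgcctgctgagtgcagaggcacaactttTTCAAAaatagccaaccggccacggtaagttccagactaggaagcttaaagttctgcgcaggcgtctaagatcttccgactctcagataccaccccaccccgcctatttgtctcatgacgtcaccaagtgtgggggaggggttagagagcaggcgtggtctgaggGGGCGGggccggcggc
The Ccnb2 window held 3 CCAAT matches, at -87, -54 and -21, and 2 TTTGAA matches, of which 1 began at position 5 after the start. Of 32851 RefSeq promoter windows of the same 270 bases, 35.4% held CCAAT at least once, 3.05% held it 3 or more times, and 16.8% held TTTGAA. The Cdkn2b window held 1 TTTGAA match on the opposite strand and 1 GGGCGG match, a motif found in 34.1% of windows. CpG dinucleotides numbered 14 in the Ccnb2 window and 15 in the Cdkn2b window, against a median of 6 over all windows. Cdkn2a had 2 windows, one with 42 CpG at the upstream start and one with 9. Matches are descriptions of these letters and not measured binding. Ccnd1 and Ccnd2 are named only.

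Libraries held from 61375911 to 119266777 counts. The deposited FPKM (a fragment density scaled by transcript length and library size) served for levels, and the deposited counts for tests. Summed ES and NPC markers followed the labelled cell types. The ES markers, 3 of 10 listed, summed to 266 to 443 FPKM in the 2 ES lines and 2.09 to 4.65 FPKM in the 8 NPC clones, and 11 of 12 listed NPC markers summed to 374 to 424 and 3666 to 6442 FPKM. Markers of fibroblasts, 11 of 12 listed, summed to 56.3 to 123 FPKM in the ES lines and 3.67 to 45.9 FPKM in the clones, and 5 astrocyte markers to 47.6 to 65.5 and 35.9 to 236 FPKM, with clone E1.2 highest among the clones for both. In E1.2, 6 of the 11 fibroblast markers reached 1 FPKM, and Col3a1 alone gave 24.2 of the 45.9 FPKM. Only 1 of the 5 astrocyte markers reached 1 FPKM in each ES line. Neuron markers, 4 of 7 listed, summed to 18.5 to 51.0 FPKM in the ES lines and 5.08 to 19.8 in the clones. Of these 4, 1 reached 1 FPKM in each ES line and 1 or 2 in a clone, so the ES sum was not shared by all of them. Oligodendrocyte markers, 4 of 7 listed, summed to 9.41 to 11.1 FPKM in the ES lines and 20.5 to 64.5 in the clones, without overlap. Of these 4, 3 reached 1 FPKM in each ES line but 1 to 3 in a clone, so the higher sum was not shared by all of them. The 2 endoderm markers measured summed to at most 2.72 FPKM in any library. In bulk RNA, fewer cells of a type and less RNA per cell cannot be told apart, and the part of these other cell types in the values below was not tested.

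All 5 genes differed between NPC clones and ES lines, the D cyclins and the Ink4 genes upward and Ccnb2 downward. The adjusted p-values are from edgeR's quasi-likelihood test over 14561 genes with the line as a covariate, and 63.0% of those genes passed at 0.05, 33.3% higher and 29.7% lower, so passing this test is common here. The ranges of ES and NPC libraries did not overlap for any of the 5, on either the count or the FPKM scale. Over all genes tested, 32.0% were higher and 30.0% lower without overlap in CPM, the counts scaled by library size with edgeR's TMM factors, and 32.3% and 31.3% in FPKM.

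Ccnd2 showed the largest change of the 5. Its FPKM was 2.63 and 3.20 in the ES lines. The XX clones had 190, 270, 218 and 255 FPKM, and the XY clones 439, 335, 362 and 466. The lowest clone was therefore far above both ES lines. The log2 change of Ccnd2 was 6.78 ± 0.30 (SE), a 110-fold rise, with an adjusted p of 6.19e-07 in edgeR.

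Ccnd1, a D cyclin also present in ES cells, stood at 22.5 and 42.6 FPKM in the ES lines. It measured 329, 307, 111 and 341 FPKM in the XX set and 397, 436, 387 and 432 in the XY set. Clone G4 was the single low clone, still above both ES lines. The log2 change was 3.44 ± 0.43 (SE), a 10.9-fold rise (edgeR adjusted p = 0.000131), and 3.55 without G4.

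Cdkn2a was measured at 14.4 and 10.1 FPKM in the ES lines. The XX clones gave 130, 311, 154 and 125 FPKM, and the XY clones gave 84.7, 87.1, 135 and 184. C2 stood above every other clone. The log2 change was 3.77 ± 0.55 (SE), or 13.6-fold (edgeR adjusted p = 0.000328).

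Cdkn2b, which lies next to Cdkn2a, had the lowest mean FPKM of the 5 in both cell types. The ES lines gave 1.73 and 3.57. The values were 13.2, 40.3, 24.8 and 28.8 FPKM in the XX clones and 44.5, 27.0, 29.4 and 30.3 in the XY clones. Clone 129 was the lowest. The log2 change was 3.46 ± 0.42 (SE), 11.0-fold (edgeR adjusted p = 0.000113). The adjacent genes ranked the clones differently: C2 was highest for Cdkn2a and second for Cdkn2b, whereas mC3, the lowest for Cdkn2a, was highest for Cdkn2b.

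Ccnb2 went the other way. It gave 133 and 96.6 FPKM in the ES lines. In the clones its FPKM was 24.1, 36.1, 34.6 and 15.5 (XX) and 41.4, 50.9, 36.7 and 42.6 (XY). The lowest values were those of E1.2 and 129; E1.2 was also the clone with the highest astrocyte and fibroblast markers, whose part in its Ccnb2 level was not tested. The log2 change was -1.79 ± 0.31 (SE), a 3.46-fold fall (edgeR adjusted p = 0.000876). It ranged from -2.25 to -1.20 when single libraries were left out. Both ends were set by the ES libraries (-1.20 without the XX ES library and -2.25 without the XY ES library).

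**Figure D1:**
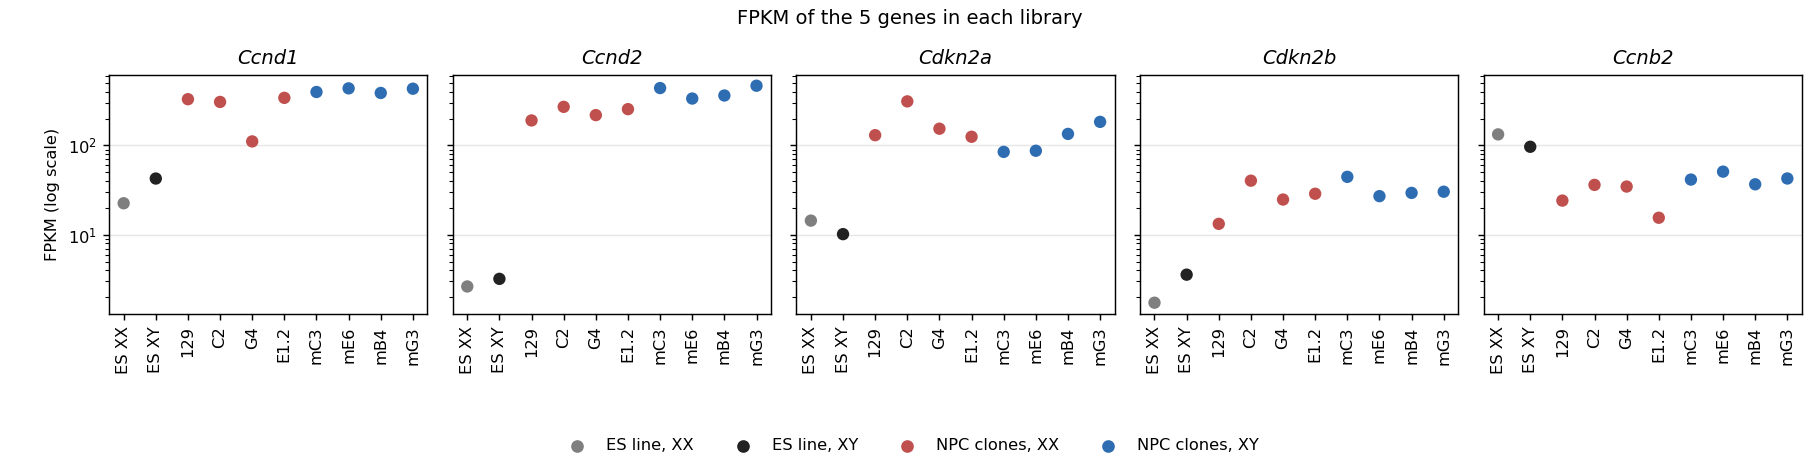
FPKM (log axis) of each gene in each of the 10 libraries, 1 point per library, coloured by group. Ccnd1, Ccnd2, Cdkn2a and Cdkn2b are higher in all 8 NPC clones than in both ES lines and Ccnb2 is lower; G4 is low for Ccnd1 at 111 FPKM and C2 high for Cdkn2a at 311 FPKM.

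The order of the genes by FPKM changed with the cell type. In the ES lines (n = 2) Ccnb2 led with 115 ± 26 FPKM (SD), followed by Ccnd1 with 32.5 ± 14.2, Cdkn2a with 12.3 ± 3.0, Ccnd2 with 2.92 ± 0.40 and Cdkn2b with 2.65 ± 1.3. The last pair did not differ beyond their spread. In the 8 NPC clones Ccnd1 at 342 ± 105 FPKM (SD) and Ccnd2 at 317 ± 101 were level within their spread, Cdkn2a followed with 151 ± 72, and Ccnb2 at 35.2 ± 11.1 and Cdkn2b at 29.8 ± 9.5 overlapped.

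The wider cell cycle programme was read from 80 genes in 11 lists by role, which include the 5, and 73 of them had a row of their own. Of the 73, 13 were higher in NPC clones, 35 lower and 25 did not pass. Over all genes tested 33.3% were higher and 29.7% lower, the shares to set beside each list count. The lists were not tested against these shares. The median log2 change of the 73 was -0.65, against 0.11 over all genes. Among the D cyclins and their kinases, Ccnd3 fell by 2.54 on the log2 scale (± 0.29 SE), from 132 and 199 FPKM in the ES lines to 22.7 to 51.4 in the clones, so the 3 D cyclins did not move together. Cdk6 fell from 2.63 and 7.89 FPKM to at most 1.39, and Cdk4, the other D cyclin kinase, had a log2 change of 0.05 ± 0.16 and did not pass. All 3 measured Ink4 genes rose. The third, Cdkn2c (p18Ink4c), went from 0.912 and 1.74 FPKM to 30.0 to 49.0, a log2 change of 5.09 ± 0.33, the largest of the Ink4 genes measured.

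Downstream of the D cyclin kinases, all 3 pocket proteins rose: Rbl2 by 1.79 ± 0.18 (log2 ± SE), Rb1 by 1.65 ± 0.24 and Rbl1 by 0.77 ± 0.21. Over all genes tested 33.3% were higher and 29.7% lower. The Cip/Kip inhibitor Cdkn1a (p21) rose by 2.20 ± 0.35, and the other 2 of its list did not pass. Of 9 E2F and DP genes 1 was higher and 2 lower. E2f4, an E2F of the repressive complexes, fell by 1.69 ± 0.13, E2f8 fell by 0.65 ± 0.24 and E2f6 rose by 0.48 ± 0.17. In the S phase cyclin list 1 of 6 was higher and 3 were lower. Its E cyclins split: Ccne1 fell by 1.98 ± 0.22 and Ccne2 rose by 1.83 ± 0.29, while the Cdk phosphatase Cdc25a fell by 1.34 ± 0.22.

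Ccnb2 was the gene with the largest fall among 7 measured mitotic cyclins, Cdk1 and its switches, of which 4 were lower and none higher. Over all genes tested 29.7% were lower and 33.3% higher. The log2 change was -1.52 ± 0.16 (SE) for the Cdk1 inhibitory kinase Wee1, -1.37 ± 0.20 for cyclin Ccnb1 and -1.07 ± 0.33 for the related kinase Pkmyt1. Of 12 mitotic kinase and checkpoint genes 9 were lower, with -1.85 ± 0.16 for Bub1 and -1.82 ± 0.21 for Bub1b, both of the spindle checkpoint, and -1.52 ± 0.22 for the spindle kinase Aurka. Of 12 replication genes 10 were lower, with -2.73 ± 0.17 for the origin licensing factor Cdt1, and -1.91 ± 0.22 and -1.83 ± 0.16 for the helicase subunits Mcm7 and Mcm5. Of 8 B-Myb and DREAM genes 4 were lower. Mybl2, which encodes B-Myb itself, went from 246 and 268 FPKM in the ES lines to 4.63 to 12.1 in the clones, a fall of 5.15 ± 0.25 on the log2 scale. Topoisomerase Top2a changed by -1.07 ± 0.19 and the DREAM subunit Lin37 by -0.83 ± 0.16. The proliferation marker Mki67 had a change of 0.37 ± 0.24 and did not pass. In the p53 list 2 of 5 were higher and 1 lower: the p53 target Ccng1 rose by 2.06 ± 0.34, Mdm2 rose by 0.64 ± 0.25 and Trp53, the p53 gene, fell by 1.74 ± 0.10.

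**Figure D2:**
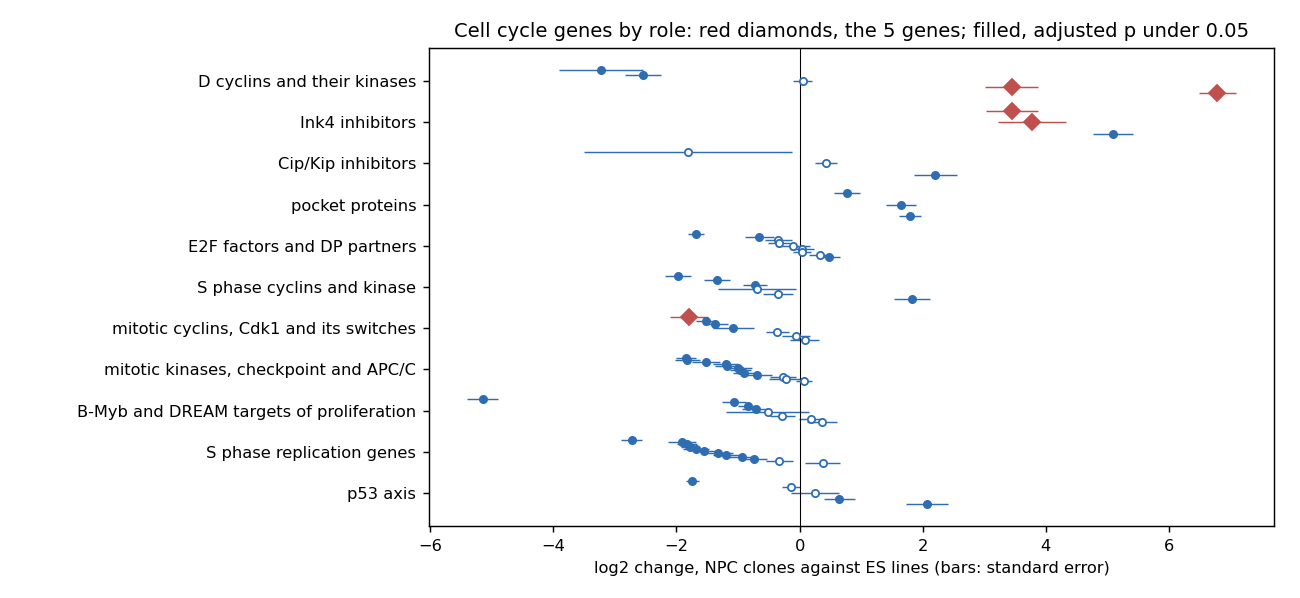
Log2 change of each measured list gene, NPC clones against ES lines (x axis, bars are standard errors), grouped by role on the y axis. Red diamonds are the 5 genes and filled points passed the test; Ccnd1 and Ccnd2 lie to the right of 0 and Ccnb2 at the left end of its list, at -1.79.

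Among the NPC clones, none of the 5 genes passed the edgeR test of XX against XY clones, in which 1.29% of 13591 genes passed and 23.9% had an unadjusted p under 0.05. Ccnd2 came nearest. Its mean was 234 ± 36 FPKM (SD, n = 4) in the XX clones and 401 ± 62 in the XY clones, with no overlap, and its log2 difference was -0.72 ± 0.16 (SE; edgeR adjusted p = 0.0647, unadjusted p = 0.00195). DESeq2 gave -0.71 with an adjusted p of 0.000776, and limma on log2(FPKM + 1) gave -0.78 with an adjusted p of 0.0485, so the call depended on the tool. With edgeR 119 genes were higher and 56 lower in XX clones, whereas limma on FPKM called 143 higher and 325 lower.

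The ranges of Ccnd1 also did not overlap, with 272 ± 108 FPKM (SD) in XX and 413 ± 25 in XY clones. In CPM 9.20% of genes tested, and in FPKM 12.4%, were lower in XX clones without overlap. The log2 difference of Ccnd1 was -0.55 ± 0.32 (SE; edgeR adjusted p = 0.318) and -0.30 without G4, the clone whose 129 allele was low. Ccnb2, at 27.6 ± 9.7 and 42.9 ± 5.9 FPKM, differed by -0.55 ± 0.28 (adjusted p = 0.265) and by -0.35 without E1.2, with ranges that did not overlap in FPKM but did in CPM. Cdkn2a differed by 0.69 ± 0.40 (adjusted p = 0.323), or 0.30 without C2, and Cdkn2b by -0.26 ± 0.29 (adjusted p = 0.602). The Cdkn2b difference was -0.04 without clone 129, -0.10 without mC3 and -0.49 without C2. None of 72 list genes passed this comparison. None of the 5 passed the edgeR test of a different change from ES to NPC between the lines, each with 1 ES library; the adjusted p-values ran from 0.610 for Ccnb2 to 0.973 for Cdkn2a, and 0.101% of genes passed and 11.0% had an unadjusted p under 0.05.

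The alleles showed a second layer of differences, which lay between single clones. In both ES lines all 5 genes were biallelic, with 129 shares (the percent of a gene's counts assigned to the 129 allele) from 39.5% to 49.2%. The median share over autosomal genes was 50% in each ES line. Among NPC clones a gene was called monoallelic where 85% or more of at least 20 counts came from one allele and an exact binomial test within the library passed. By this rule Ccnd1 was monoallelic in G4, Cdkn2b in clone 129 and Ccnb2 in clones 129 and E1.2. At a stricter limit of 95%, Ccnb2 in clone 129 was the one call left. Ccnd2 and Cdkn2a were biallelic in every library. All 4 calls were in XX clones. In G4 6.99% of testable genes were monoallelic, in clone 129 8.37% and in E1.2 6.69%. The shares in C2 and in the XY clones are not given here, so the split of the calls between the sets is not read as a result. With 6 or more testable clones required, 16.5% of 12108 genes were monoallelic in 1 or more, and of those with 500 or more counts in every clone 5.10%.

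Ccnd1 had 129 shares of 41.9% and 44.1% in the ES lines. The shares were 48.5%, 48.9%, 8.40% and 47.2% in the XX clones and 48.2%, 48.5%, 47.7% and 46.6% in the XY clones. The other 7 clones lay within 46.6% to 48.9%, and G4 alone was Cast, with a 95% exact binomial interval of 8.03% to 8.77% on 21852 counts. Intervals cover counting error only. Cdkn2b had 39.5% and 41.0% in the ES lines. Its XX clones had 6.12%, 43.9%, 45.1% and 40.5%, and its XY clones 48.8%, 55.0%, 42.2% and 54.3%. Clone 129 was the Cast clone here, with an interval of 4.68% to 7.85% on 947 counts.

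Ccnb2 was the gene with 2 monoallelic clones, and both kept the 129 allele. Its ES shares were 43.5% and 46.0%. Across the XX set they were 99.4%, 43.7%, 44.7% and 92.5%, and across the XY set 47.0%, 46.9%, 49.3% and 45.1%. Clone 129 had 8 Cast counts of 1327 and E1.2 had 110 of 1462. Clone 129 therefore kept the Cast allele of Cdkn2b and the 129 allele of Ccnb2.

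The genes that were never monoallelic differed from each other. Ccnd2 shares were 41.0% and 40.6% in the ES lines, 43.6%, 46.0%, 47.6% and 49.5% in the XX clones, and 48.5%, 46.0%, 47.0% and 48.2% in the XY clones. Cdkn2a spread more widely, with 45.6% and 49.2% in the ES lines, 57.5%, 56.6%, 66.1% and 41.9% in the XX clones and 53.9%, 56.4%, 54.3% and 46.5% in the XY clones. G4 had the highest Cdkn2a share and E1.2 the lowest. Over all 8 clones neither stood at that end for Cdkn2b. Even so, G4 was the highest XX clone for Cdkn2b at 45.1%, and E1.2 the lowest of the biallelic clones at 40.5%.

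**Figure D3:**
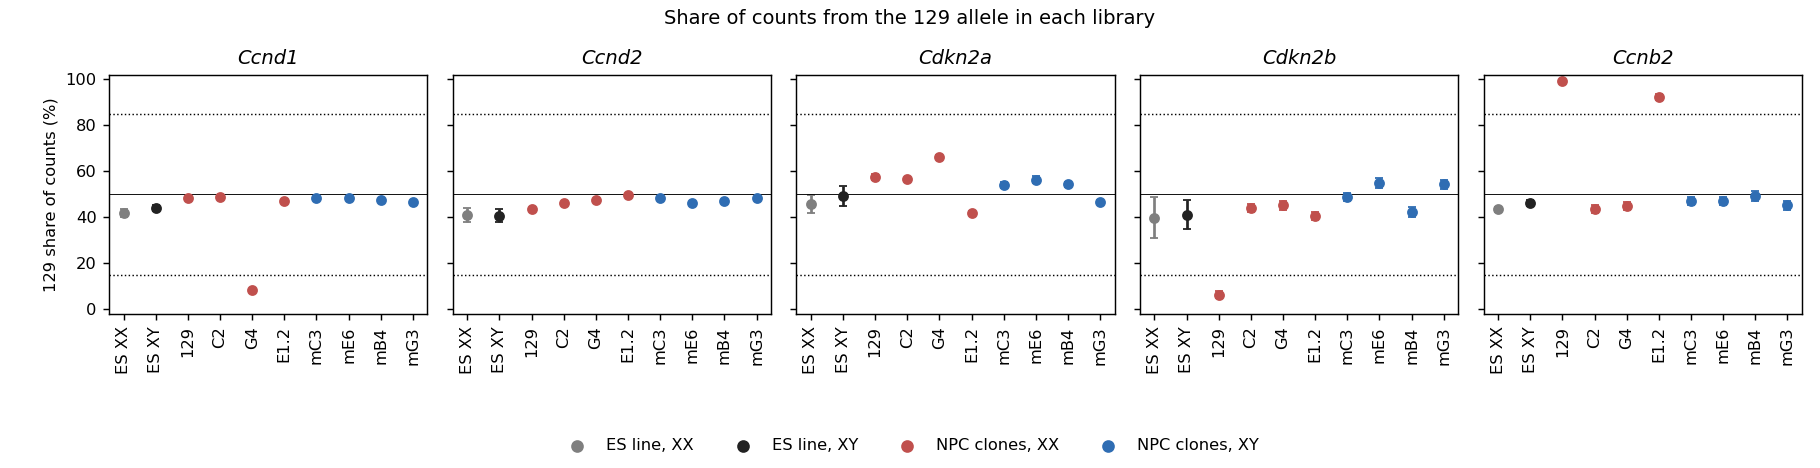
Share of counts from the 129 allele (percent, y axis) for each gene in each library, with 95% exact binomial intervals; dotted lines mark the 15% and 85% limits of a monoallelic call. Ccnd1 in G4 at 8.40% and Cdkn2b in clone 129 at 6.12% lie under the lower limit, and Ccnb2 in clones 129 and E1.2 over the upper one.

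A quasi-likelihood test of equal 129 shares over the 8 clones, in which 19.9% of 12108 genes passed, called 4 of the 5 genes. False calls of this test on simulated data exceeded the nominal rate, so its adjusted p-values are not read as exact. The deviance was 41.9 times its expected value for Ccnb2 (adjusted p = 9.32e-58), 27.7 times for Ccnd1 (7.93e-37), 14.1 times for Cdkn2a (3.38e-17) and 12.9 times for Cdkn2b (2.01e-15). Ccnd2, with 1.95 times (adjusted p = 0.223), did not pass, but did so at 14.6 times when 1 overdispersion was used for all depths. Without G4 the value of Ccnd1 fell to 0.20 times (adjusted p = 1), so its call rested on that clone. Without clone 129 Cdkn2b was at 3.31 times (adjusted p = 0.0184). Ccnb2 stayed past the threshold without clone 129 or without E1.2, at 22.9 and 30.0 times. Without G4 or E1.2 the value of Cdkn2a was 8.83 or 9.46 times.

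Between NPC clones and ES lines, the 129 to Cast ratio passed for Ccnd2 alone among the 5, in an edgeR fit of both alleles in which 17.8% of 12360 genes passed. Its log2 ratio was 0.37 ± 0.08 (SE) higher in NPC clones (adjusted p = 0.0187), which came from shares of 43.6% to 49.5% against 40.6% to 41.0%. Leaving out either ES library ended that call (adjusted p = 0.0912 and 0.127). For Ccnd1 the difference was -0.06 ± 0.76 with all clones and 0.29 ± 0.06 without G4 (adjusted p = 0.0131); among the libraries left out in turn, only leaving out G4 gave a call. Leaving out the XX ES library with G4 kept also turned the direction, to 0.21 (adjusted p = 0.971). Between XX and XY clones none of the 5 passed, with adjusted p-values from 0.769 to 0.912; 0.0248% of genes passed and 8.42% had an unadjusted p under 0.05.

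The levels of the single alleles showed what was missing in each monoallelic clone. In G4 the 129 allele of Ccnd1 gave 18.6 CPM, against 284 to 396 in the 7 biallelic clones. Its Cast allele gave 203 CPM, also below the 297 to 443 of those clones. The kept allele was thus not higher than elsewhere, and the total was lowest in G4. In clone 129 the 129 allele of Cdkn2b gave 0.859 CPM against 10.9 to 19.7, and its Cast allele gave 13.2 CPM, inside the range of 11.9 to 21.3 in the other clones. For Ccnb2 the Cast allele gave 0.118 CPM in clone 129 and 0.973 in E1.2, against 14.3 to 21.8 in the 6 biallelic clones. The kept 129 allele of Ccnb2 gave 19.5 CPM in clone 129, just above the range of 13.2 to 19.3, and 12 CPM in E1.2, just below it. Within the XX set the biallelic clones C2 and G4 gave 13.2 and 13.7 CPM. The total of each gene was lower than in every biallelic clone in all 4 cases.

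**Figure D4:**
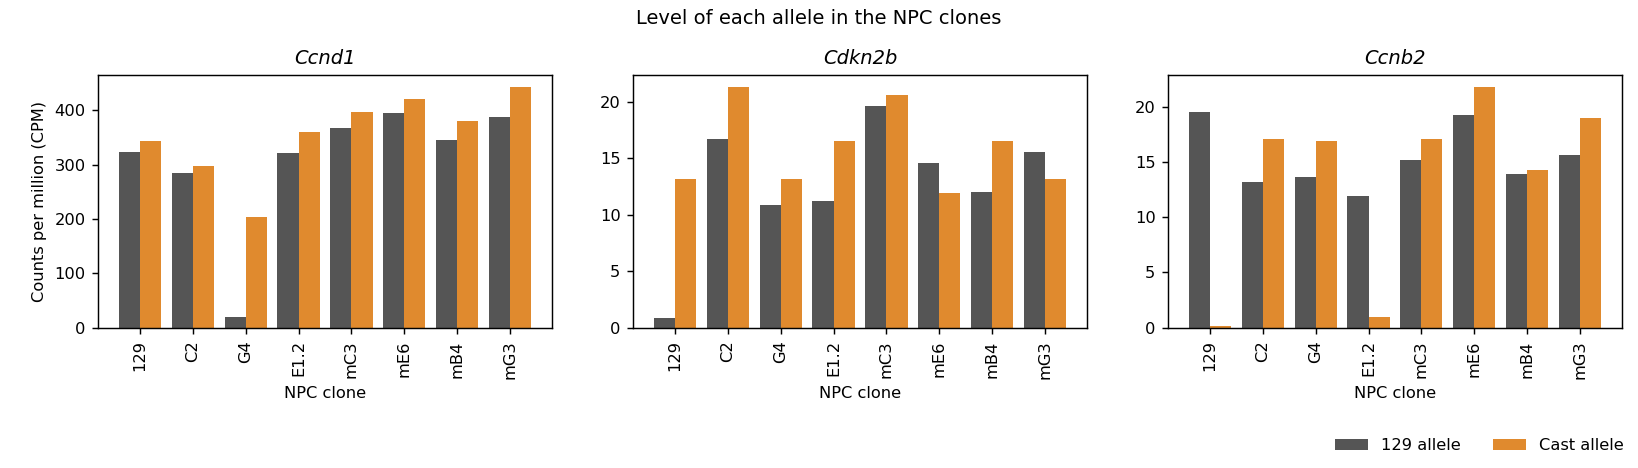
CPM of the 129 allele (grey) and of the Cast allele (orange) in each of the 8 NPC clones, with bars from 0 and no error since each is 1 library. One bar is close to 0 for Cdkn2b in clone 129 and for Ccnb2 in clones 129 and E1.2; for Ccnd1 in G4 the 129 bar is at 18.6 and the Cast bar at 203.

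The chromosomal surroundings of the 4 cases differed. Around Ccnd1 in G4, all 6 genes and fragments within 1 Mb with 50 or more counts were monoallelic for Cast, among them Cttn (5.84%), Ppfia1 (5.14%), Fadd (2.57%), Oraov1 (4.88%) and Tpcn2 (3.61%). The sixth, the unnamed fragment cuff_15983, had 1.69% on 59 counts in G4, but was also monoallelic for Cast in each of the 5 other clones with 20 or more counts, at 2.33% to 11.9%. Among genes with 100 or more counts, Ccnd1 belonged to an unbroken run of 13 from Kcnq1 to Tpcn2, the last gene of chromosome 7 in the table, over 2.18 Mb (chr7:150293158-152469864, mm9). The 129 shares in the run were 2.13% to 8.51%. The same genes had a median share of 50.3% in the other 3 XX clones, and the gene before the run, Tssc4, had 45.0% in G4. The totals of all 13 were lower in G4 than the mean of the other XX clones, with a median log2 difference of -1.15. Kcnq1 and Kcnq1ot1 at the edge of the run overlap, had the same counts in G4 and were also monoallelic in 3 of the other 7 clones, whereas the remaining 11 were monoallelic in none of them. Nap1l4, for instance, had 6.41% in G4 and 47.8% to 51.0% in the other clones, and Dhcr7 6.04% against 48.5% to 51.7%.

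Cdkn2b and Ccnb2 lay in no such run. In clone 129 none of the 8 neighbours of Cdkn2b within 1 Mb with 50 or more counts was monoallelic, and 7 were biallelic. The eighth, Ptplad2, was skewed to Cast at 16.8% on 155 counts, just inside the limit of 15%; it had 22.3% in E1.2 and 33.9% to 45.2% in the other clones. Cdkn2a, the next gene with 100 or more counts on one side, had a share of 57.5%, and an unnamed fragment on the other side 52.2%. Around Ccnb2 none of 10 such neighbours was monoallelic in clone 129, where Myo1e had 50.9% and Rnf111 48.2%. In E1.2 1 of 10 was, Aldh1a2, with 1.61% on 62 counts and so on the Cast allele, opposite to Ccnb2. Anxa2 was skewed to the 129 allele at 78.3%, and the other 8 were biallelic; Myo1e had 52.8% and Rnf111 52.7%. The median log2 difference of the neighbours' totals from the other XX clones was 0.37 around Cdkn2b, 0.16 around Ccnb2 in clone 129 and 0.03 in E1.2, against -1.04 around Ccnd1 in G4. The cause of the run on chromosome 7 was not tested, and no DNA copy number was measured here.

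**Figure D5:**
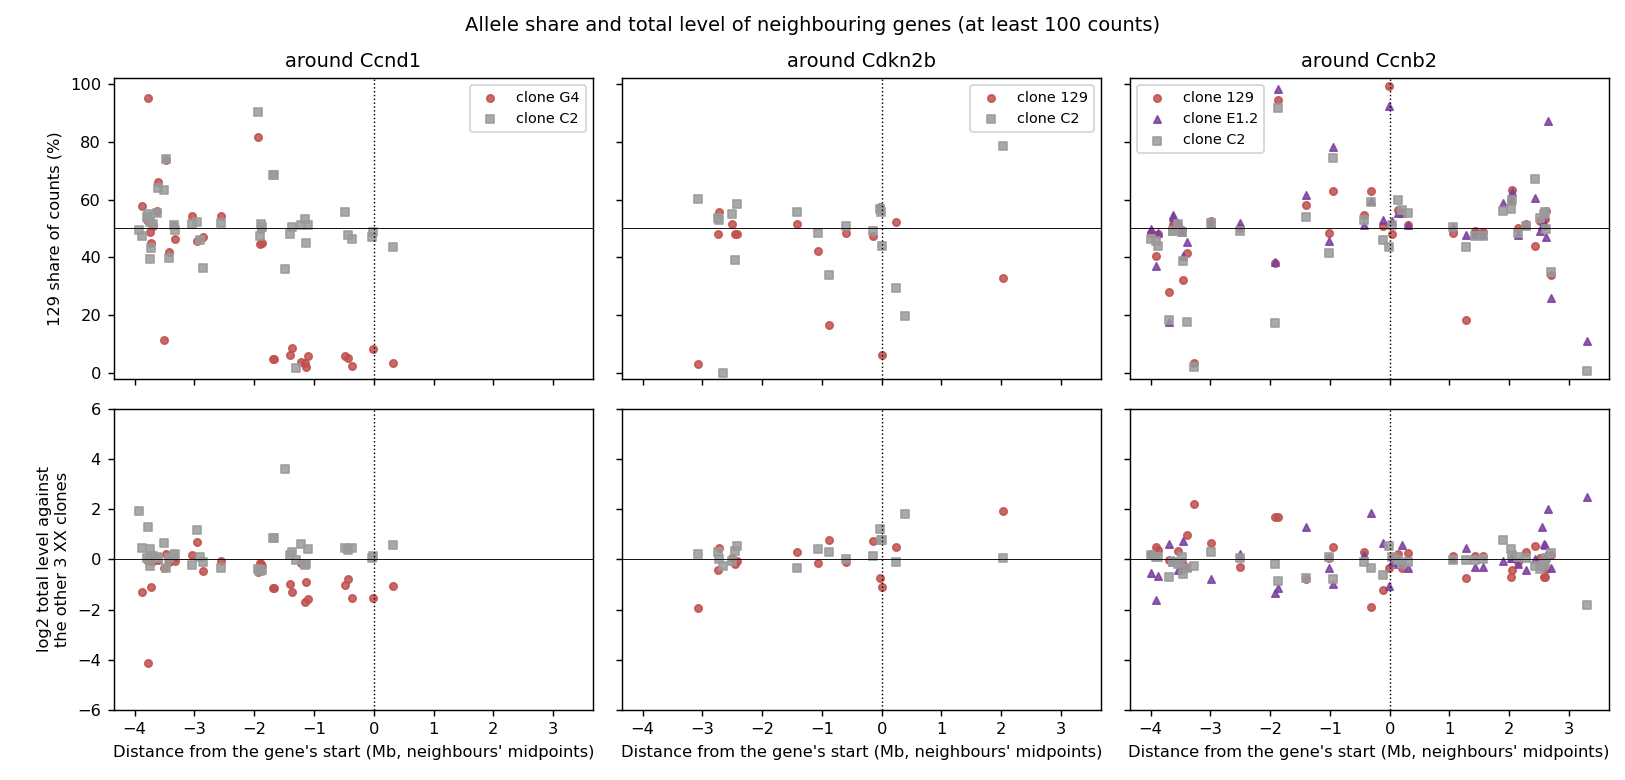
Genes with at least 100 counts by distance from the start of Ccnd1, Cdkn2b and Ccnb2 (x axis, Mb). The upper row gives the 129 share in percent, the lower row the log2 total level against the other 3 XX clones, for the monoallelic clones and for C2, in which all 3 genes are biallelic; in G4 a block of points at shares under 10% runs through Ccnd1, with totals below 0.

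Among 71 list genes testable in at least 6 clones, 5 were monoallelic in at least 1 clone, and 3 of these were Ccnd1, Cdkn2b and Ccnb2. By the same rule 16.5% of all genes were monoallelic, and 5.10% of those with 500 or more counts in every clone. The list genes were not matched to either set by depth, so their share is not read as low or high. The mitosis-entry phosphatase Cdc25b was the fourth, in clone 129, with 99.6% of 1676 counts from the 129 allele and 42.3% to 49.8% in its biallelic clones. Cdc25b gave 13.0 FPKM in clone 129, below the 16.5 to 27.4 of the other clones. Ccna1 was the fifth, called for Cast in clones 129 and mB4 at 97 and 25 counts.

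The genes whose levels followed each member most closely were ranked by Pearson's r of log2 CPM over the 8 clones among 9267 genes. This is a description only, since all values of a clone come from 1 library. The highest r among so many genes over 8 clones is large through selection alone. For Ccnd1 they were Nap1l4 (r = 0.98), a gene of the chromosome 7 run that was also low in G4, Spry4 (0.97) and Pole4 (0.97). For Ccnd2 they were Slc35e1 (0.99), Hnrnpul2 (0.97) and Uso1 (0.96). For Cdkn2a they were Tm2d3 (0.92), Anks1 (0.91) and Tmem160 (0.90). For Cdkn2b they were Naa35 (0.99), Slc29a3 (0.94) and Sec24d (0.94), and for Ccnb2 Parg (0.98), Srsf1 (0.97) and Eny2 (0.97). Among the members themselves r was 0.65 for Ccnd2 with Cdkn2b, 0.58 for Ccnd1 with Ccnd2 and 0.12 for the adjacent pair Cdkn2a and Cdkn2b.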

How the data were processed

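RNA was measured by paired-end 100 bp sequencing of polyadenylated RNA, per the labels and the series' design text. The authors deposited, for each gene and library, a count, the ratio (fraction) of that count assigned to the 129 allele, and an FPKM value; TopHat 1.4.0, Cufflinks 1.3.0, SAMtools and mm9 are named in the submitters' processing notes, and the allele counting rules are not given in the sources used here. Of 12 labelled samples 10 libraries were used; 2 repeat libraries were not analysed here. Totals of 61375911 to 119266777 counts per library set the counting error.

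From the deposited counts, 129 counts were computed as count times ratio. Expression was tested with edgeR 4.0.16 (quasi-likelihood, TMM, filterByExpr) and Benjamini-Hochberg adjustment over all genes at 0.05; allele ratios with edgeR on the 129 and Cast counts with a term for each library; share differences between clones with a quasi-likelihood deviance test whose overdispersion followed depth. Its simulated false calls exceeded the nominal rate. DESeq2 1.42.0, limma 3.58.1 on deposited FPKM (pseudocounts 1 and 0.1), other scalings and filters and leaving out libraries were alternatives. The tests were checked on simulated data. The members, lists and rules were chosen with earlier results of these data known. Named list genes were up to 3 per list with the largest change among those that passed; Cdk4, Mki67 and Cdc25b were named after their values were seen, as were genes of the run around Ccnd1 and neighbours of the members.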

Additional observations from a re-analysis of the deposited data

Results flagged for a closer look

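Within the groups of 4 NPC clones, 4 of the 20 sets of values examined (5 genes, FPKM and 129 share, XX and XY clones) had one clone whose gap to the next was over 0.829 of the whole range. Chance alone marks about 1 in 20 such sets when they are independent. These sets are not, and the genes were chosen with earlier results known, so the number marked is not compared with chance. In the XX clones G4 was far below the others for Ccnd1, with 111 FPKM and with a 129 share of 8.40%. Clone C2 was far above the others for Cdkn2a, with 311 FPKM, while its Cdkn2a share of 56.6% lay within the range of the other clones. Clone 129 was far below the others for the 129 share of Cdkn2b, at 6.12%. Its Cdkn2b FPKM of 13.2 was the lowest of the XX clones but did not stand apart by this measure, and neither did Ccnb2, for which 2 of the 4 XX clones were monoallelic.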

How the results depend on the processing

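The 5 calls of NPC clones against ES lines kept their direction and stayed past the threshold under every alternative run, including each library left out. The total of 9173 genes called fell to 5493 with the XX line only. Between XX and XY clones, Ccnd2 passed with DESeq2 (-0.71) and with limma on log2(FPKM + 1) and log2(FPKM + 0.1) (-0.78 for both; adjusted p = 0.0485 and 0.0496) and with no other alternative. The 175 genes called in that comparison became 1932 with DESeq2, 468 and 428 with limma, and 7 to 496 with a clone left out. Those higher in XX clones were 68.0% of calls with edgeR, 30.6% and 33.2% with limma. The 15 interaction calls became 562 with DESeq2, 294 and 38 with limma, and 3 to 30 with a clone left out; the interaction of Cdkn2a ranged from -0.015, without C2, to 0.69.

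For the NPC against ES allele ratio, Ccnd1 ranged from -0.34 to 0.29 over single libraries left out, turning to 0.21 without the XX ES line and 0.29 without G4. Ccnd2 lost its call at 0.40 and 0.34 without the XX and the XY ES line. Cdkn2b, which was near 0 (0.05), ranged from -0.49 to 0.53 over single libraries left out. Genes called fell from 2201 to 1199 without the XX ES line, and other libraries left out gave up to 2169. In XX against XY allele ratios, single clones left out gave -0.99 to 0.027 for Ccnd1, -0.044 to 0.43 for Cdkn2a (both turned without G4) and -0.10 to 0.016 for Ccnd2 (turned without clone 129), none past the threshold; the 3 genes called became 1 to 8. For share differences between clones, Ccnd1 ranged from 0.20 times expectation, without G4, to 38.6 over single clones left out; with 1 overdispersion for all depths Ccnd1 was at 183 and Ccnd2 at 14.6 times. With 95% in place of 85% for a monoallelic call, Ccnd1 and Cdkn2b had 0 such clones and Ccnb2 had 1. Where not given, the cause was not tested.

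No paired analysis was possible because the clone numbers are names only: XX and XY clones come from different lines, and each line has 1 ES library. ES values rest on 1 library per line, so NPC against ES tests take their spread mostly from the clones. Cdkn2b shares in the ES lines rest on 124 and 249 counts, and neighbours under 100 counts were not read for runs.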
